A study of Homo sapiens with 21 samples.

Results

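Exon sites away from start sites are accessible regions whose centre the deposited annotation places in an exon, with the nearest annotated transcription start more than 3000 bases away. Of the 367900 consensus sites of the series, 8664 (2.35%) met this rule, out of 12766 sites annotated to exons at any distance. They fell in 6067 genes, of which 4410 held 1 such site and 1657 held 2 or more. After a filter on low counts, 8378 were tested and 286 were removed. The assay was ATAC-seq: Tn5 transposase inserts adapters into open DNA, and more reads over a site mean a more open site. The cells were SK-N-BE(2), an established human neuroblastoma line. All groups had been transduced with lentivirus made in HEK293T cells, and chromatin was collected 72 h later. The 7 groups of 3 libraries were Control, shARID1A.2, shARID1A.4, shARID1B.2, shARID1B.3 and the combinations shARID1A/B.2.3 and shARID1A/B.4.2, in which an shRNA against ARID1A and an shRNA against ARID1B were given together. The libraries of a group are labelled as biological triplicates, all of 1 cell line at 1 time. ATAC-seq does not measure the silenced transcripts, so the degree of silencing was not checked here.

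ARID1A and ARID1B are alternative structural subunits of BAF, a chromatin remodelling complex that slides or evicts nucleosomes and keeps regulatory DNA open. Most accessible chromatin lies at promoters or in introns and between genes. An exon can also be accessible, since a coding or untranslated stretch may double as an enhancer, hold a binding site of a factor such as CTCF, or lie at a start used by another transcript of the gene.

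The label was checked against GENCODE v44, a reference annotation of the same build (GRCh38). The centre of 8232 sites (95.0%) lay in a GENCODE exon, and for 7347 (84.8%) this exon carried the same gene symbol. By the GENCODE exon at the centre, 4850 sites (56.0%) were coding, 2337 (27.0%) were in a 3' untranslated region (3' UTR), 312 (3.601%) in a 5' UTR and 733 (8.46%) in an exon of a non-coding transcript. In the deposited annotation 4109 sites (47.4%) lay in an internal exon, 4053 (46.8%) in the last exon of the named transcript and 502 (5.79%) in the first. The distance part of the label held less well, because the deposited distance uses fewer start sites than GENCODE lists. In all, 1423 sites (16.4%) lay within 3000 bases of the start of a basic GENCODE transcript, and 886 of these within 1000 bases. Of the 502 first-exon sites, 401 lay within 1000 bases of a GENCODE start. The label therefore held for 7241 sites by GENCODE, and counts are given with and without the others. For 4093 sites (47.2%) the gene of the exon was not the gene with the nearest start, so a site is named here after the gene whose exon it lies in.

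Just inside the distance limit lay a site in exon 1 of LOC100996873, 3004 bases from that gene's start. It had 5.69 CPM (reads scaled to library size, with TMM factors) in Control. Also just inside lay a site in exon 12 of UBTF with 4.82 CPM, at -3006 bases from the start of MIR6782. Just outside lay a site in PSMC2 with 9.11 CPM, at -3000 bases from the start of DNAJC2. A site in P2RY8 with 3.58 CPM lay just outside as well, 3000 bases from that gene's start. A negative distance means that the site lies upstream of the nearest start, which can belong to another gene.

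To show what such sites look like, the 300 bases at the centre of 5 of them are given. They are the coding sites among the 8 largest falls and 8 largest rises after combined silencing (both genes silenced, mean of the combinations, against Control) that touch no UTR. The sequence is the GRCh38 reference, plus strand, 5' to 3', at chr1:59638207-59638506 (FGGY), chr6:37451695-37451994 (CMTR1), chr7:14685207-14685506 (DGKB), chr16:67727280-67727579 (RANBP10) and chr16:88437466-88437765 (ZNF469). Capitals mark matches to a fixed set of short factor motifs, searched on both strands. The motif of AP-1 was TGANTCA, that of GATA factors AGATAA, the E-box CATCTG, the homeodomain core TAATTA and that of TEAD factors GGAATG. The CRE was searched as TGACGTCA and the ETS motif as CCGGAAGT, and CTCF by its core, which has free positions. Motifs were counted separately, so that matches may overlap.
FGGY: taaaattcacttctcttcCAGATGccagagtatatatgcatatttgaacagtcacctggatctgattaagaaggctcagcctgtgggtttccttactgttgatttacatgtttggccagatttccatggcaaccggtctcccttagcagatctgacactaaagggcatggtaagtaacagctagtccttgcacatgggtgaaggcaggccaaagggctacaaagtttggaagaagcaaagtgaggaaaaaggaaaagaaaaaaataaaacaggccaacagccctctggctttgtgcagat
CMTR1: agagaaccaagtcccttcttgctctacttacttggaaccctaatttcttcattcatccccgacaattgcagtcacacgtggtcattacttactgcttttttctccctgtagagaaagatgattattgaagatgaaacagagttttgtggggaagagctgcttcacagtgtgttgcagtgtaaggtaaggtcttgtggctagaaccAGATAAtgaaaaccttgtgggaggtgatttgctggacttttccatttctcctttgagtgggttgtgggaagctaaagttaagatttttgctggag
DGKB: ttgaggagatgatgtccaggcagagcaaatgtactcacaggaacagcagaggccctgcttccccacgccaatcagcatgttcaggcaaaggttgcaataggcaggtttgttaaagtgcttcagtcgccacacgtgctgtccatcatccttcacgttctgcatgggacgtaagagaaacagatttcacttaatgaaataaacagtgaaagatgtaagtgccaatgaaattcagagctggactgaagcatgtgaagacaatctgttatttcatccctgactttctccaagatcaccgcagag
RANBP10: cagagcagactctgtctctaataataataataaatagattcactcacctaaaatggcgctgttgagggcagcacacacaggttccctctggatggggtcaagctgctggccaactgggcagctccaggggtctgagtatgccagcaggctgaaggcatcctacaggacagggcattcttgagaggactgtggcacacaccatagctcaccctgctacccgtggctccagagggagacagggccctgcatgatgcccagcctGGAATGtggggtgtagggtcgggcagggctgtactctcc
ZNF469: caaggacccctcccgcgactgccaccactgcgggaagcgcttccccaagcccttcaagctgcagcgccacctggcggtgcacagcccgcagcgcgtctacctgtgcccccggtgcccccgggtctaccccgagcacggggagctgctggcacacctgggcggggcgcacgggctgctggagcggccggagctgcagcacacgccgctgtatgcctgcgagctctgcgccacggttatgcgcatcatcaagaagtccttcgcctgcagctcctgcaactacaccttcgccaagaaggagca
In FGGY the 148-base exon spans positions 22 to 169 of the window, and the E-box match, at positions 19 to 24, straddles the boundary of intron and exon. In CMTR1 the 72-base exon spans positions 112 to 183 and the GATA match lies beyond it in the intron, at positions 206 to 211. The DGKB window holds the 118-base exon at positions 39 to 156 and none of the motifs. In RANBP10 the exon of 112 bases spans positions 48 to 159, and the TEAD match at positions 262 to 267 is intronic. The ZNF469 window lies wholly inside an exon of 13409 bases, has a GC content of 68.7% with 26 CpG dinucleotides, and holds no match. The windows of the 3 sites that fell had a GC content of 42.3% to 46.0% and 1 to 6 CpG dinucleotides, whereas that of RANBP10 had 56.3% and 3. Sites are wider than their exon in many cases, so the accessible stretch often takes in the flanking introns.

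Over all exon sites away from starts, the median length was 739 bases (760 over all consensus sites), the median GC content was 52.5% (46.9%) and the median ratio of observed to expected CpG was 0.272 (0.193). The tested exon sites had a median of 1.07 CPM in Control, beside 1.04 CPM over all tested sites. The share of reads that fell in the 8664 sites was 2.34%, 2.20% and 2.35% in the Control libraries. It was 2.36%, 2.20% and 2.34% with shARID1A/B.2.3 and 2.40%, 2.40% and 2.42% with shARID1A/B.4.2. Libraries of shARID1A.2 gave 2.35%, 2.26% and 2.30%, and those of shARID1A.4 gave 2.42%, 2.38% and 2.37%. The ARID1B groups gave 2.27%, 2.35% and 2.28% (shARID1B.2) and 2.40%, 2.34% and 2.32% (shARID1B.3). The 3 libraries of shARID1A/B.4.2 and the 3 of shARID1A.4 lay above all Control libraries, and the other 4 groups overlapped them. Without the sites within 3000 bases of a GENCODE start the share was 1.29% to 1.41% in Control and 1.33% to 1.34% with shARID1A/B.4.2, so that these ranges overlapped. Depth was 16140029 to 44472230 reads in sites per library.

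On the mean of the combinations, silencing both genes closed more exon sites than it opened, but the combinations differed. With shARID1A/B.2.3 9.13% closed and 2.20% opened (background 10.4% and 2.85%). The shares with shARID1A/B.4.2 were nearly equal, at 5.45% and 5.28% (background 7.37% and 3.97%). Against Control, 715 of the 8378 tested exon sites (8.53%) were lower, beside a background of 10.3% of all tested sites, and 339 (4.05%) were higher, beside 3.43% (edgeR quasi-likelihood test, false discovery rate, FDR, under 0.01 over all 357029 tested sites). The lower sites fell in 684 genes and the higher sites in 330, with 16 genes holding both kinds. The median log2 change was -0.89 over the closed and 0.51 over the opened sites. A change of at least 2-fold was seen at 278 closed (3.32%, background 4.46%) and 29 opened sites (0.346%, background 0.252%). Over all tested exon sites the median change was 0.06 on the log2 scale, beside 0.03 over all sites. Intron sites beyond the same distance were closed in 12.1% and opened in 1.52% of cases, and intergenic ones in 9.38% and 1.85%. The bar plot of calls by comparison sets the shares of exon sites beside those of all tested sites.

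Opened sites lay in large part near GENCODE starts. Of the 339 opened sites, 162 lay within 3000 bases of a GENCODE start, where 11.6% of 1392 tested exon sites opened, and beyond that distance 177 of 6986 opened (2.53%). Closed sites numbered 108 of 1392 (7.76%) near a GENCODE start and 607 of 6986 (8.69%) away from it. Within 1000 bases of a GENCODE start 16.4% of exon sites opened, between 1000 and 3000 bases 3.65%, and between 3000 and 10000 bases 2.88%. All tested sites in the same ranges opened in 22.1%, 2.86% and 2.10% of cases. Scaling the libraries on promoter sites alone, in place of all sites, moved the median log2 change of all sites from 0.03 to -0.20, and the exon sites then split into 1196 closed (background 15.9%, exon sites 14.3%) and 70 opened (background 0.729%, exon sites 0.836%). Without Control replicate 2 the opened count was 161 (1.92%, background 2.05%), and the closed count was 725 (8.65%, background 9.63%).

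**Figure D1:**
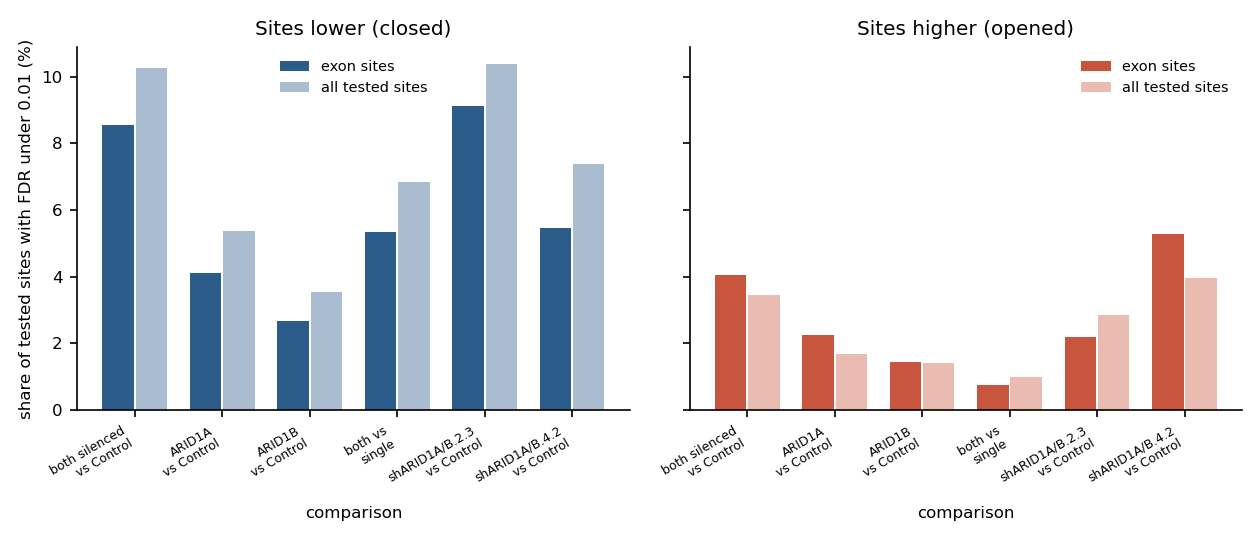
Share (%) of tested exon sites (dark bars) and of all tested sites (pale bars) that were lower, left, or higher, right, at an FDR under 0.01 in 6 comparisons. After combined silencing 8.53% of exon sites were lower and 4.05% higher, beside 10.3% and 3.43% of all sites.

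**Figure D2:**
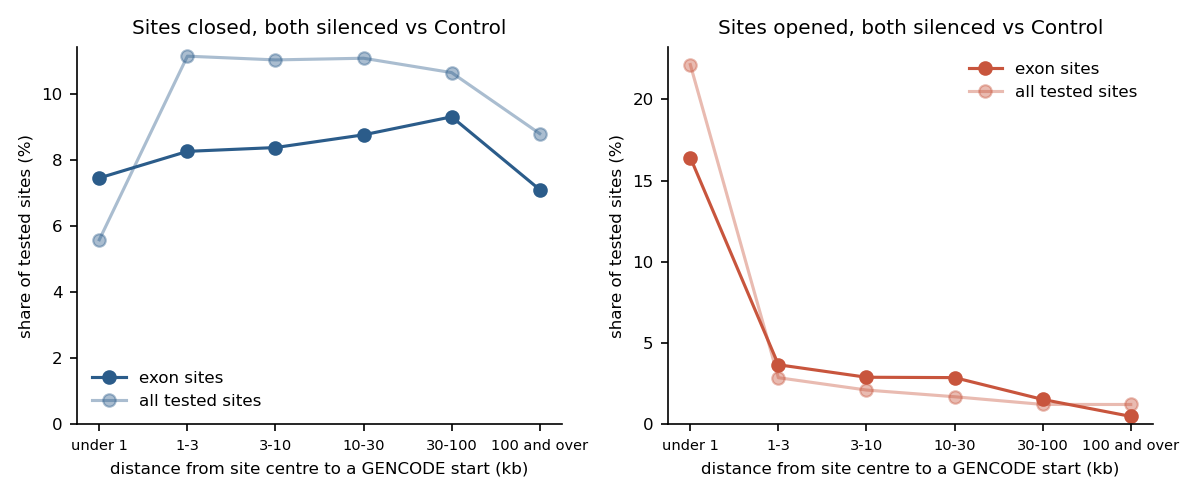
Share (%) of tested sites closed, left, and opened, right, after combined silencing, by distance in kb from the site's centre to the nearest start of a basic GENCODE transcript. Dark points are exon sites and pale points all tested sites, and the vertical axes of the panels differ. Among exon sites the opened share was 16.4% under 1 kb and 2.88% at 3 to 10 kb.

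The share of sites called varied with the class of exon. Coding sites were closed in 296 of 4669 cases (6.34%) and opened in 155 (3.32%). Sites in a 3' UTR were closed in 266 of 2261 cases (11.8%) and opened in 77 (3.41%). In 5' UTRs 15 of 307 (4.89%) were closed and 67 (21.8%) opened, and in non-coding transcripts 86 of 712 (12.1%) were closed and 23 (3.23%) opened. First-exon sites were closed in 5.25% and opened in 22.4% of 495 cases. Internal exons gave 7.40% and 2.55% of 3959, and last exons 10.1% and 3.24% of 3924. Away from GENCODE starts the shares were 6.19% closed and 2.22% opened for coding sites and 11.7% closed and 3.13% opened for 3' UTR sites. These shares are descriptions over sites, which are not replicates, and the difference between classes was not tested.

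**Figure D3:**
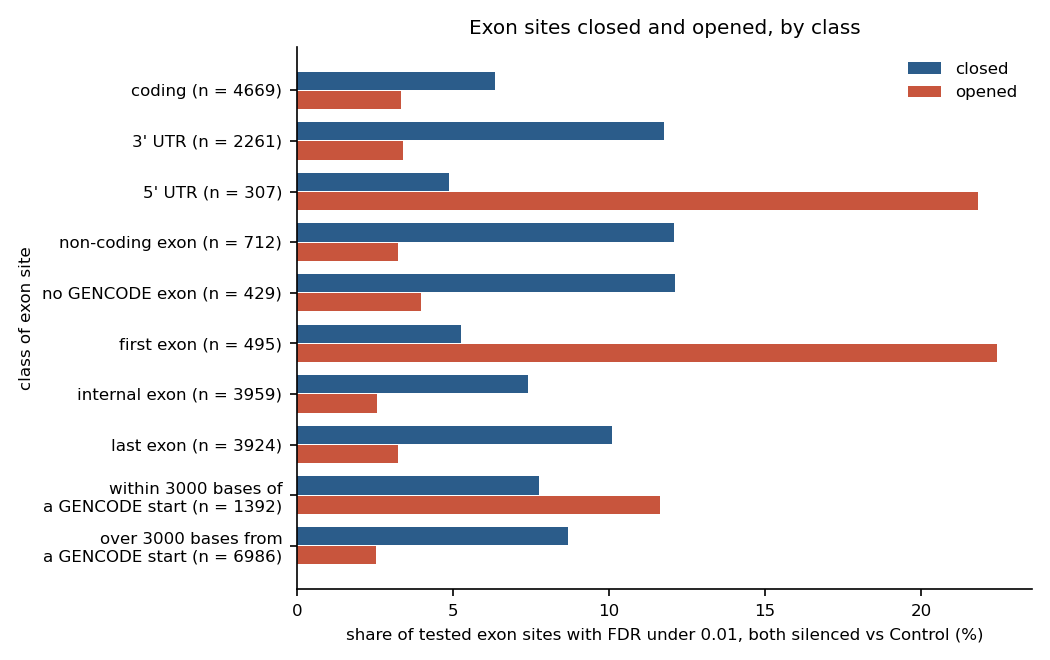
Share (%) of tested exon sites closed (blue) and opened (red) after combined silencing, by the GENCODE class at the centre, by the rank of the exon in the deposited annotation and by distance to a GENCODE start. First-exon and 5' UTR sites show the largest opened shares, 22.4% and 21.8%.

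Base composition moved with these calls. Of exon sites with a GC content under 40%, 135 of 684 (19.7%) were closed and 2.49% opened, and of those at 60% or more 51 of 1902 (2.68%) were closed and 187 (9.83%) opened. Over all tested sites the same ranges gave 19.1% and 1.90%, and 4.02% and 19.9%. Within each of the 5 GC ranges from 40% upwards a larger share of 3' UTR than of coding sites closed, for example 9.25% of 411 against 6.03% of 812 at 50% to 55%. Under 40% the shares were 19.5% of 308 and 20.3% of 281. The median Control level differed in the same way. It was higher for 3' UTR than for coding sites in each of those 5 ranges, for example 1.11 and 0.849 CPM at 50% to 55%. Under 40% it was lower, at 1.22 and 1.35 CPM. The classes were not compared at equal Control level. The closed exon sites had a median GC content of 46.6% and a median CpG ratio of 0.228, and the opened ones 60.9% and 0.615. Control accessibility moved with calling as well. In the lowest of 5 equal bins of exon sites by Control level (at most 0.498 CPM) 2 of 1676 were closed and 22 opened, and in the highest (3.04 CPM and over) 404 of 1676 (24.1%) were closed and 213 (12.7%) opened. All tested sites at that high level were closed in 32.4% and opened in 13.2% of cases, and those at the lowest level in 0.0722% and 1.03%. The Control level is also the baseline of the change, so these shares describe the sites and are not a test. With offsets for GC content fitted in each library, 728 exon sites were closed (background 9.38%) and 316 opened (background 4.12%). Chromosome 19 had 36 of 224 exon sites opened (16.1%, all tested sites there 21.4%) at a median GC content of 62.4%, and chromosome X had 25 of 130 closed (19.2%, all tested sites there 18.4%).

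**Figure D4:**
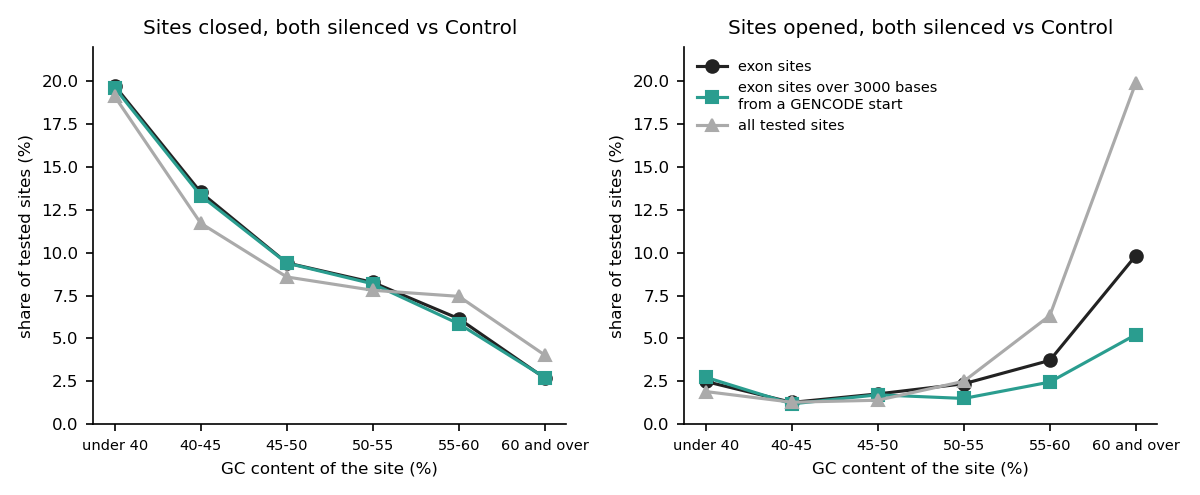
Share (%) of tested sites closed, left, and opened, right, after combined silencing, by GC content of the site (%). Black circles are exon sites, green squares exon sites over 3000 bases from a GENCODE start and grey triangles all tested sites. The closed share of exon sites went from 19.7% in the lowest to 2.68% in the highest GC range.

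Motif matches were counted in the 300 bases at the centre of each site. The E-box form CATCTG, bound by basic helix-loop-helix factors of the HAND and TWIST kind, was found in 242 of 715 closed sites (33.8%), 40 of 339 opened (11.8%) and 25.5% of 7324 sites not called. Its share was 25.7% over all 8664 exon sites and 22.99% over all consensus sites. A GATA match was held by 17.9% of closed, 5.90% of opened and 10.2% of other exon sites (16.9% of all consensus sites), and an AP-1 match by 12.9%, 5.90% and 7.77% (10.9%). For the homeodomain core TAATTA the shares were 9.23%, 1.77% and 3.93% (7.79%). The CTCF motif ran the other way, with 1.40% of closed, 6.49% of opened and 3.99% of other exon sites (2.41%). TEAD matches were found in 18.6%, 10.03% and 15.4% (16.9%), CRE matches in 0.699%, 0.885% and 0.177% (0.221%), and ETS matches in 0 of 715 closed, 3 of 339 opened and 0.355% of other sites (0.359%). Over all tested sites the E-box was held by 32.97% of closed, 12.97% of opened and 22.2% of uncalled sites. The same shares were 24.7%, 7.94% and 16.5% for GATA and 14.3%, 5.56% and 10.7% for AP-1. They were 14.1%, 3.25% and 7.32% for the homeodomain core and 1.35%, 4.997% and 2.48% for CTCF. The order of the shares at exon sites was thus that of all tested sites for each of these motifs. It differed for CRE (0.169%, 1.42% and 0.182%). Some of these motifs are rich in A and T. Under 45% GC the E-box was held by 39.9% of 306 closed and 25.03% of 1610 uncalled exon sites, at 45% to 55% by 29.8% and 28.5%, and at 55% and over by 28.6% and 23.1%. For GATA the pairs of values were 28.1% and 22.6%, 13.4% and 11.0%, and 4.76% and 3.06%. For CTCF closed and uncalled sites gave 0.327% and 2.67%, 1.53% and 3.29%, and 3.40% and 5.28%. Opened sites held it in 4 of 33, 6 of 61 and 12 of 245 cases, and in the last range, at 55% GC and over, that share (4.90%) was not above that of uncalled sites. A match is a description of the letters and not evidence that a factor binds.

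Among exon sites with a mean of at least 1 CPM, called with each combination and with all 6 combination libraries on 1 side of all Control libraries, 324 fell and 73 rose. The largest fall was at FGGY, which encodes a carbohydrate kinase, in exon 11 of 17 (chr1:59638005-59638707). The Control libraries held 4.19, 4.11 and 3.41 CPM there, and the combinations 0.525, 0.627 and 0.264 (shARID1A/B.2.3) and 0.806, 0.460 and 0.974 (shARID1A/B.4.2). The single shRNAs gave 1.58, 1.83 and 2.25 (shARID1A.2), 1.56, 0.971 and 1.32 (shARID1A.4), 1.89, 1.92 and 1.38 (shARID1B.2) and 1.005, 1.05 and 0.756 (shARID1B.3). No silenced library reached the Control range, and the combination libraries lay below the others except that 1 shARID1B.3 library and 1 shARID1A.4 library overlapped shARID1A/B.4.2. The log2 change was -2.65 ± 0.18 (SE, FDR 1.04e-22 by edgeR) with both genes silenced, -1.32 ± 0.16 with ARID1A and -1.59 ± 0.16 with ARID1B silenced.

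USP13, a deubiquitinating enzyme, held the most accessible of the 8 largest falls in Control, in coding exon 19 of 21 (chr3:179765245-179766217). Its Control libraries gave 22.5, 21.6 and 21.8 CPM. With shARID1A.2 and shARID1A.4 the values were 13.1, 11.9 and 12.7, and 9.38, 9.20 and 8.64. With shARID1B.2 and shARID1B.3 they were 11.9, 11.96 and 11.6, and 8.32, 9.51 and 8.44. The combinations gave 5.55, 6.13 and 5.45 (shARID1A/B.2.3) and 5.47, 4.28 and 4.92 (shARID1A/B.4.2). The 3 levels, Control, single and combined, did not overlap in any library. The log2 change was -2.05 ± 0.09 (SE, FDR 6.40e-35 by edgeR) after combined silencing, -1.04 after ARID1A and -1.11 after ARID1B silencing, and combined against single silencing differed by -0.98 ± 0.07 (FDR 1.19e-19).

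The site named for exon 9 of 9 of MEF2A, a MADS-box transcription factor of muscle and neurons, lies at chr15:99692279-99693456, where GENCODE has no basic exon at the centre and places it inside the gene. Control libraries held 10.2, 10.3 and 9.78 CPM, shARID1A.2 2.40, 2.56 and 3.01 and shARID1A.4 4.44, 5.45 and 4.70. The values were 5.35, 5.47 and 6.76 with shARID1B.2 and 6.81, 8.16 and 6.22 with shARID1B.3, and 2.17, 1.72 and 2.37 and 2.20, 2.53 and 2.74 with the combinations. The shARID1A.2 libraries thus overlapped shARID1A/B.4.2, and the other single shRNAs lay between them and Control. It was also the exon site with the smallest p-value for ARID1A silencing, with a log2 change of -1.49 ± 0.11 (FDR 3.48e-19 by edgeR), beside -2.16 ± 0.12 with both and -0.64 ± 0.10 with ARID1B silenced.

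The other 5 large falls had log2 changes between -2.12 and -1.99. CMTR1, which methylates the mRNA cap, fell in exon 6 of 24 (chr6:37451436-37452252) from 2.74, 2.30 and 2.81 CPM to 0.396 to 0.828 in the combinations. DGKB, a diacylglycerol kinase, fell in exon 9 of 25 (chr7:14685206-14685507) from 3.99, 3.58 and 4.65 to 0.659 to 1.38. PTPRU, a receptor tyrosine phosphatase, fell in the 3' UTR of exon 30 of 30 (chr1:29325481-29326511) from 3.85, 3.99 and 4.09 to 0.624 to 1.09. In the last exon of LOC100507156 (chr8:23362964-23363851), which GENCODE names LOXL2-AS1, a non-coding RNA on the strand opposite to LOXL2, values went from 11.5, 8.26 and 10.2 to 1.72 to 3.09. At ABCC6P1 (chr16:18596299-18598090), a pseudogene of the ABCC6 transporter, they went from 3.85, 3.45 and 4.69 to 0.747 to 1.10. Pseudogene reads can be shared with near-identical copies, so this last value is uncertain. That the libraries of both combinations lay below every Control library at all 5 sites follows from the rule by which sites were chosen. Each FDR by edgeR was 1.40e-16 or lower, also among sites chosen for being called.

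The 8 largest rises under the same rule lay between 0.81 and 1.02 on the log2 scale, while opened sites outside it reached 2.37. PRDM12, a transcription factor of sensory neurons, rose in the 3' UTR of exon 5 of 5 (chr9:130680869-130682740). Control libraries held 6.83, 5.59 and 6.53 CPM, shARID1A.2 9.73, 7.84 and 8.98, shARID1A.4 10.2, 9.52 and 9.64, shARID1B.2 7.67, 10.04 and 7.22 and shARID1B.3 12.4, 10.9 and 9.45. The combinations gave 11.6, 8.39 and 11.4 (shARID1A/B.2.3) and 12.1, 11.3 and 14.01 (shARID1A/B.4.2), and every silenced library lay above Control. The change was 0.85 ± 0.11 on the log2 scale (SE, FDR 1.28e-09 by edgeR) after combined silencing, 0.56 after ARID1A and 0.59 after ARID1B silencing.

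LINC00518, a long non-coding RNA, rose in exon 3 of 3 (chr6:10429718-10430427) from 2.21, 2.55 and 1.96 CPM to 3.22, 3.97 and 2.86 with shARID1A/B.2.3 and 6.09, 5.25 and 4.59 with shARID1A/B.4.2. ERVK13-1, a non-coding RNA of endogenous retroviral origin, rose in its last exon (chr16:2659768-2661075) from 1.54, 1.07 and 2.004 to 2.11 to 3.90, and reads there can be shared with other copies of the element. RANBP10, a RAN-binding protein, rose in exon 13 of 14 (chr16:67726393-67728466) from 0.866, 0.904 and 0.882 to 1.49 to 1.95. The postsynaptic scaffold SHANK3 rose in its last exon (chr22:50731889-50732573) from 0.866, 0.945 and 1.36 to 1.65 to 2.46. The remaining rises were the Krüppel-like factor KLF16 (0.770, 0.822 and 0.722 to 1.34 to 2.29), the ubiquitin ligase RFWD3 (1.25, 0.904 and 1.04 to 1.32 to 2.40) and the zinc finger gene ZNF469 (1.40, 1.40 and 2.08 to 2.30 to 3.43). KLF16 (FDR 0.0127 by edgeR) and ZNF469 (0.0173) missed the threshold with GC offsets, and RFWD3 with promoter scaling (0.0267) and without Control replicate 2 (0.0178). KLF16, SHANK3 and LINC00518 lay 1179, 2659 and 3449 bases from a GENCODE start.

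**Figure D5:**
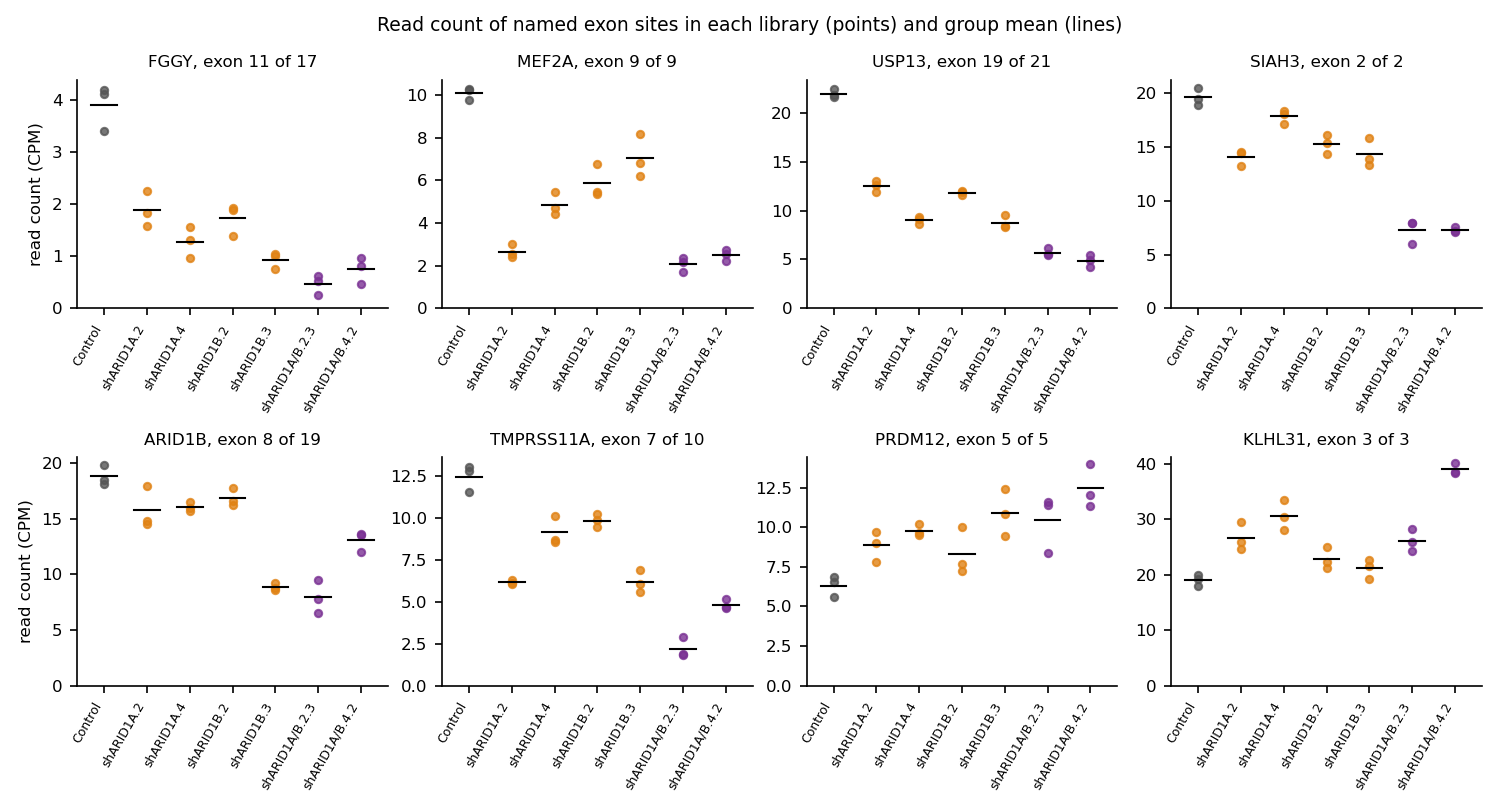
Read count (CPM) at 8 named exon sites in each library (points) with the mean of each group (line), for Control (grey), single shRNAs (orange) and combinations (purple). At USP13 the Control libraries sit between 21.6 and 22.5 CPM and the 6 combination libraries between 4.28 and 6.13.

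The most accessible exon sites in Control for their length were in first exons, at PANX1 (a channel of the pannexin family, 46.2 CPM per kb), ATP8A1 (a phospholipid flippase, 42.2), LARP1B (an RNA-binding protein, 40.6), FAM115A (40.1) and EPM2A (the phosphatase laforin, 40.04). The sites at PANX1, ATP8A1, LARP1B and EPM2A lay 132 to 242 bases from a GENCODE start, whereas the deposited distances were 20628 to 49070 bases. FAM115A, which GENCODE calls TCAF1, had no exon at the centre and lay 16866 bases from a start. PANX1 gave 75.6, 78.7 and 75.4 CPM in Control, 81.97, 88.4 and 77.9 with shARID1A/B.2.3 and 98.7, 100 and 98.3 with shARID1A/B.4.2, and rose by 0.24 on the log2 scale (FDR 0.00362 by edgeR). LARP1B rose by 0.27 (FDR 0.00247) and FAM115A by 0.41 (FDR 4.67e-05), while ATP8A1 (0.11, FDR 0.307) and EPM2A (0.17, FDR 0.0748) did not pass. Taken singly, shARID1A/B.2.3 was not called at PANX1 (FDR 0.314 by edgeR) or LARP1B (0.0733). Their calls with shARID1A/B.4.2 had FDRs of 7.80e-05 and 8.68e-04. LARP1B was not called without Control replicate 3 (FDR 0.0552 by edgeR), nor PANX1 without Control replicate 1 (0.0298), Control replicate 3 (0.0323) or shARID1A/B.2.3 replicate 2 (0.0126). The directions also changed with the scaling. With promoter scaling none of the 5 passed and ATP8A1 and EPM2A turned negative, with GC offsets none passed and ATP8A1, LARP1B and EPM2A turned negative, and with offsets trended on abundance PANX1, ATP8A1, LARP1B and EPM2A turned negative, of which PANX1, ATP8A1 and EPM2A passed as lower.

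ARID1A silencing (mean of both shRNAs against Control) closed 344 exon sites (4.11%, background 5.37%) and opened 187 (2.23%, background 1.67%). ARID1B silencing closed 222 (2.65%, background 3.53%) and opened 119 (1.42%, background 1.39%). Of the 715 sites closed after combined silencing, 330 (46.2%) were also called closed with ARID1A and 204 (28.5%) with ARID1B, beside 50.4% and 32.5% of all 36610 tested sites closed after combined silencing. Their median log2 change was -0.54 with ARID1A and -0.34 with ARID1B, and that of the 339 opened sites was 0.41 and 0.34. All of these comparisons share the Control libraries. With promoter scaling the counts were 682 closed and 33 opened for ARID1A (background 9.55% and 0.336%) and 401 and 46 for ARID1B (background 5.77% and 0.588%). Without Control replicate 2, 352 sites closed (background 4.86%) and 40 opened with ARID1A (background 0.533%), and 214 closed (background 3.02%) and 35 opened with ARID1B (background 0.599%). Leaving out replicate 1 of shARID1A.2 or of shARID1A.4 gave 91 and 92 opened with ARID1A. All tested sites fell as well there, from 5972 to 3815 and 3742. Leaving out Control replicate 1 gave 145 closed with ARID1B (all tested sites 9243, from 12618). Leaving out replicate 2 of shARID1B.2 or of shARID1B.3 gave 75 and 79 opened with ARID1B (all tested sites 3724 and 3595, from 4973). In the direct comparison of ARID1A with ARID1B silencing, 277 exon sites were lower with ARID1A silenced (3.31%, background 3.69%) and 97 higher (1.16%, background 1.05%).

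FAM170B-AS1, an antisense RNA, had the exon site with the smallest p-value for ARID1B silencing, in exon 6 of 6 (chr10:49149963-49151848). Control libraries gave 17.4, 17.2 and 17.7 CPM. The ARID1A groups gave 14.9, 13.2 and 13.9 (shARID1A.2) and 8.42, 8.13 and 9.89 (shARID1A.4), and the ARID1B groups 11.7, 13.3 and 10.9 (shARID1B.2) and 3.46, 3.22 and 3.95 (shARID1B.3). The values were 3.78, 3.81 and 3.96 with shARID1A/B.2.3 and 5.69, 5.48 and 6.54 with shARID1A/B.4.2. The shRNAs of 1 gene thus differed, and the libraries that received shARID1B.3, alone or combined, were the lowest and overlapped each other. The log2 change was -1.43 ± 0.09 (SE, FDR 4.60e-23 by edgeR) with ARID1B, -0.66 ± 0.09 with ARID1A and -1.87 ± 0.09 with both.

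A like pattern was seen within ARID1B itself. A site in coding exon 8 of 19 of this gene (chr6:157148307-157149293) had 18.4, 18.1 and 19.8 CPM in Control and 16.2, 17.7 and 16.6 with shARID1B.2, but 9.21, 8.60 and 8.78 with shARID1B.3. It had 17.9, 14.7 and 14.6 with shARID1A.2 and 16.5, 15.99 and 15.7 with shARID1A.4. The combination with shARID1B.3 gave 9.49, 6.53 and 7.74 (shARID1A/B.2.3), and the one with shARID1B.2 gave 13.5, 12.01 and 13.6 (shARID1A/B.4.2). The site changed by -0.89 ± 0.09 on the log2 scale with both genes silenced (SE, FDR 2.99e-14 by edgeR), and the combinations differed from each other by -0.73 ± 0.11 (FDR 3.53e-07). It was the sole closed site of 13 tested exon sites in 5 genes of BAF, PBAF and ncBAF subunits, and none of the 13 opened.

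Taken singly, the shRNA groups closed and opened 314 and 77 exon sites (shARID1A.2; background 4.54% and 0.834%, exon sites 3.75% and 0.919%), and 250 and 267 (shARID1A.4; background 4.17% and 2.28%, exon sites 2.98% and 3.19%). For shARID1B.2 they were 104 and 101 (background 1.84% and 1.34%, exon sites 1.24% and 1.21%), and for shARID1B.3 322 and 299 (background 4.88% and 3.12%, exon sites 3.84% and 3.57%). The combination shARID1A/B.2.3 closed 765 (9.13%, background 10.4%) and opened 184 (2.20%, background 2.85%), and shARID1A/B.4.2 closed 457 (5.45%, background 7.37%) and opened 442 (5.28%, background 3.97%). In all, 392 exon sites were closed with both combinations (4.68%, background 6.1%) and 90 opened with both (1.07%, background 1.02%). The combinations were also compared directly. Accessibility was lower with shARID1A/B.2.3 than with shARID1A/B.4.2 at 374 exon sites (4.46%, background 3.79%) and higher at 59 (0.704%, background 1.43%). Depth differed between groups, at 18001445 to 21634157 reads in sites with shARID1B.2 and 23104850 to 44472230 with shARID1B.3. It was 21733882 to 23223780 with shARID1A.2 and 16140029 to 23110659 with shARID1A.4. The combinations had 22030968 to 40953070 (shARID1A/B.2.3) and 22181183 to 23043869 (shARID1A/B.4.2). The effect of depth on these counts was not tested.

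Combined silencing was next compared with the mean of the 4 single-shRNA groups. Of the tested exon sites, 447 were lower after combined silencing (5.34%, background 6.85%) and 62 were higher (0.740%, background 0.969%). Lower sites made up 8.18% of 3' UTR sites and 3.66% of coding sites. Among the higher sites 32 of 62 lay over 3000 bases from a GENCODE start. Without replicate 1 or replicate 3 of shARID1A/B.4.2 the higher count was 36 and 37 (all tested sites 2036 and 2213, from 3458). With promoter scaling 611 were lower (background 8.76%) and 19 higher (background 0.313%). The site with the smallest p-value lay in the 3' UTR of SIAH3, a relative of the SIAH ubiquitin ligases, in exon 2 of 2 (chr13:45781317-45782783). It held 20.5, 18.9 and 19.4 CPM in Control, 14.5, 13.2 and 14.5 with shARID1A.2, 18.4, 18.1 and 17.1 with shARID1A.4, 16.2, 14.3 and 15.4 with shARID1B.2 and 13.9, 15.8 and 13.4 with shARID1B.3. The combinations gave 7.94, 6.02 and 7.96 (shARID1A/B.2.3) and 7.08, 7.59 and 7.14 (shARID1A/B.4.2). No combination library overlapped a single-shRNA library. The log2 change was -0.31 with ARID1A, -0.40 with ARID1B and -1.44 with both, and combined against single silencing was -1.08 ± 0.07 (SE, FDR 3.58e-23 by edgeR).

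TMPRSS11A, a membrane-bound serine protease, followed in exon 7 of 10 (chr4:67922375-67923351), with 13.04, 12.8 and 11.5 CPM in Control and 1.87, 2.88 and 1.80 (shARID1A/B.2.3) and 4.70, 4.60 and 5.15 (shARID1A/B.4.2) in the combinations. Its single-shRNA libraries ranged from 5.55 to 10.2 CPM, above every combination library. USP13 (above) came next, and then GLIPR2 in the 3' UTR of exon 4 of 4 (chr9:36163022-36164064), where Control libraries held 16.1, 12.6 and 18.2, single-shRNA libraries 6.32 to 12.95 and combination libraries 3.35 to 4.97. Higher after combined than single silencing were SCN7A and KLHL31. SCN7A, a relative of the voltage-gated sodium channels, had 17.9, 19.4 and 16.7 CPM in Control in exon 25 of 25 (chr2:166404852-166406606). It had 22.8, 21.7 and 20.4 with shARID1A.2, 30.4, 28.8 and 27.5 with shARID1A.4, 16.7, 18.7 and 17.6 with shARID1B.2 and 11.8, 13.3 and 13.5 with shARID1B.3, and the combinations gave 26.1, 26.5 and 24.4 and 29.03, 28.9 and 28.8. The site was thus higher with ARID1A silenced (log2 0.47, FDR 4.99e-06 by edgeR) and not called with ARID1B (-0.26, FDR 0.0294). The shARID1A/B.4.2 libraries overlapped those of shARID1A.4, and all combination libraries lay above those of the other 3 single shRNAs. KLHL31, a kelch-like protein, had 19.9, 19.2 and 18.0 CPM in Control in exon 3 of 3 (chr6:53651250-53652647), 25.9, 28.3 and 24.2 with shARID1A/B.2.3 and 40.1, 38.3 and 38.5 with shARID1A/B.4.2. Its single-shRNA libraries held 19.3 to 33.5 CPM, so that those of shARID1A/B.2.3 lay within the single-shRNA range and those of shARID1A/B.4.2 above it.

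Gene groups were described by counts after combined silencing, beside 8.53% closed and 4.05% opened over all exon sites. Zinc finger genes had 140 tested exon sites, of which 2 were closed (ZNF185 and ZNF385A) and 11 opened, at a median log2 change of 0.19. ZNF771 had the smallest p-value, with 12.5, 9.29 and 12.1 CPM in Control, 17.2, 13.6 and 15.7 (shARID1A/B.2.3) and 22.5, 20.9 and 23.1 (shARID1A/B.4.2), and lay 1736 bases from a GENCODE start. Ion channel and channel subunit genes had 134 tested sites, 18 closed and 7 opened. Of the closed, 3 were in KCNQ1OT1, a non-coding RNA transcribed across KCNQ1 and not a channel, and 1 was in KCNIP4, a channel-interacting protein. CACNA1G, a T-type calcium channel, fell in exon 21 of 36 (chr17:50601103-50605259) from 27.6, 23.01 and 27.4 CPM to 11.3, 9.04 and 11.9 (shARID1A/B.2.3) and 14.5, 15.4 and 14.3 (shARID1A/B.4.2).

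Collagen and laminin genes, which encode extracellular matrix, had 59 tested exon sites, 6 closed and 1 opened, at a median log2 change of -0.20. The closed sites were in COL13A1, COL27A1, COL28A1, COL4A2, COL5A2 and LAMB3, and the opened one in COL19A1. COL4A2 went from 5.63, 3.49 and 4.69 CPM in Control to 2.37 to 3.39 in the combinations (FDR 1.56e-04 by edgeR) and was not called without Control replicate 1 (FDR 0.0238). Axon guidance genes had 94 tested sites, 5 closed (EFNB2, PLXNA2 at 2 sites, ROBO4 and UNC5D) and 5 opened (SEMA4B, SEMA5A, UNC5B at 2 sites and UNC5D). The receptor ROBO4 fell in exon 11 of 18 (chr11:124890925-124892424) from 21.03, 20.5 and 19.2 CPM to 7.81 to 9.23, with a log2 change of -1.24 ± 0.09 (SE, FDR 2.58e-22 by edgeR), and lay 370 bases from a GENCODE start. Cadherin genes outside the clusters had 55 tested sites, with CDH8 closed and 3 sites opened in CDH16 and DCHS2. Integrin genes had 16, with ITGA2 closed and ITGAX and ITGB4 opened. The ITGB4 call and the DCHS2 call of the smaller p-value were lost with promoter scaling (FDR 0.0323 and 0.149) and without Control replicate 2 (0.0371 and 0.0170). The ITGB4 call was also lost with GC offsets (0.0817), and that of DCHS2 with DESeq2 (0.0106) and when replicate 3 of Control (0.0515) or of shARID1A/B.4.2 (0.0214) was left out. Taken singly, only shARID1A/B.4.2 was called at ITGB4 (FDR 6.07e-05 by edgeR, beside 0.0506 with shARID1A/B.2.3). At that DCHS2 site only shARID1A/B.2.3 was called (5.70e-04, beside 0.107 with shARID1A/B.4.2). No exon site of the clustered protocadherins met the rule, and of 6 tested sites in HOX genes none was called, the smallest p-value being that of HOXD3 (log2 change -0.49, FDR 0.0437 by edgeR).

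Genes that mark the adrenergic and mesenchymal states of neuroblastoma held few exon sites. In adrenergic factor genes 5 were tested, and 1, in the only exon of the neuronal factor SOX11 (chr2:5695862-5697503), was opened. It held 48.2, 52.3 and 47.3 CPM in Control, 56.2, 62.1 and 57.02 with shARID1A/B.2.3 and 83.3, 78.7 and 80.7 with shARID1A/B.4.2, lay 462 bases from a GENCODE start, and was not called with GC offsets (FDR 0.0671 by edgeR) or abundance-trended offsets (0.0434). The shARID1A/B.4.2 libraries lay above the others. Taken singly, shARID1A/B.4.2 was called at SOX11 (log2 change 0.72, FDR 6.76e-12 by edgeR) and shARID1A/B.2.3 was not (0.25, FDR 0.0180). Mesenchymal genes had 35 tested sites, with 2 closed, in SMAD3 and TWIST1, and none opened. The site named for exon 4 of 4 of TWIST1 (chr7:19000201-19000917) lay 116844 bases from that gene's start, and GENCODE places it in the 3' UTR of HDAC9. Values were 3.56, 3.82 and 3.45 CPM in Control, 3.05, 2.97 and 3.17 with shARID1A/B.2.3 and 2.06, 1.70 and 1.86 with shARID1A/B.4.2, so that the combination libraries fell below Control in both groups and did not overlap each other. Taken singly, shARID1A/B.4.2 was called (log2 change -0.94, FDR 8.38e-06 by edgeR) and shARID1A/B.2.3 was not (-0.24, FDR 0.265). The single shRNAs gave -0.52 (shARID1A.2), 0.16 (shARID1A.4), -0.33 (shARID1B.2) and 0.32 (shARID1B.3), none of them called. With GC offsets the site was not called after combined silencing (FDR 0.0392). As a check of the cell line, the promoter site of the adrenergic factor HAND2 was at 43.9 CPM in Control, above 92.6% of promoter sites, while those of DBH and TH, enzymes of catecholamine synthesis, were at 10.3 CPM (above 48.5% of promoter sites) and 2.43 CPM (above 23.2%). Of these markers only HAND2 thus stood high among promoters. No site was annotated as a promoter of GATA3, ISL1 or MYCN.

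Some genes held many exon sites. TTN, the giant muscle protein titin, had 36, of which 34 were tested and 1 was closed, with Control levels of 0.259 to 16.1 CPM and a median log2 change of -0.14. KIAA1244 had 11 sites and none of 10 tested was called. SYNE1, a protein that links the nucleus to the cytoskeleton, had 10, of which 2 were closed. DCHS2, KCNQ1OT1, PKD1L2 and SSPO had 9 each, all tested. DCHS2 had 2 opened, KCNQ1OT1 3 closed, PKD1L2 1 closed, and SSPO none called. The 9 sites of KCNQ1OT1 lie in its single exon and spanned log2 changes from -2.05 to 0.68. Sites of 1 gene share a locus and are not independent replicates.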

How the data were processed

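ATAC-seq libraries of SK-N-BE(2) cells (21, in 7 groups of 3, grouped by the treatment label) were analysed from the deposited tables. Per the labels and file headers, the authors aligned reads to GRCh38, called consensus sites on merged replicates, deposited raw read counts per site and library, and annotated the sites with HOMER. The distance to a start is the one given by that annotation. The aligner, peak caller, read filters, transposase shift and versions were not given in the sources used here. Those tables also hold normalised counts and the authors' DESeq2 fold changes and p-values, which were not used.

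Exon sites were those annotated to an exon with an absolute distance above 3000 bases. The members and gene lists were chosen with earlier results of these data known. Counts were TMM-scaled and tested with edgeR 4.0.16 (quasi-likelihood, 1 model of 7 groups, R 4.3.3) on the 357029 sites kept by filterByExpr (minimum count 10), and 10871 were removed. P-values were adjusted by the Benjamini-Hochberg method over all tested sites, with a threshold of 0.01. The common biological coefficient of variation was 0.0817. "Closed" and "opened" mean lower and higher than Control at that threshold. Values are CPM per library, and SE is that of the log2 change. The script was tested on simulated data. Replicate libraries differed by more than counting noise in all groups (chi-square per degree of freedom 1.08 to 2.51), and none was counted as a duplicate. The excess was small among shARID1A/B.4.2 libraries (1.08 to 1.11) and between Control replicates 1 and 3 (1.09). It was largest in pairs with replicate 2 of shARID1A/B.2.3 (2.51 and 2.23) and of Control (1.84 and 2.05). A small excess cannot tell technical from biological replicates. Depth of 16140029 to 44472230 reads limits calls at weak sites. Reads carry no molecular identifiers.

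Named sites were the 8 largest falls and 8 largest rises called in the combined contrast and with each combination, over 1 CPM on average, whose combination libraries were all on 1 side of Control. To these were added the 5 most accessible per length, the smallest p-value in each gene list, in each single silencing and in combined against single silencing (4 lower, 2 higher), the genes with most sites, and the sites at the distance limit. Some genes that these rules or lists name are not reported here. GENCODE v44 basic transcripts gave exon classes and further start sites, and reference sequence was GRCh38. Alternatives were total-count, DESeq2 (1.42.0), promoter-site and abundance-trended scaling, GC offsets, the DESeq2 test, no filter, other thresholds, a replicate block, and leaving out each library. The restriction to sites away from GENCODE starts, the tests per shRNA under each alternative, the comparison of the combinations and that of ARID1A with ARID1B were added after seeing the data.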

Additional observations from a re-analysis of the deposited data

Results flagged for a closer look

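The combinations shARID1A/B.2.3 and shARID1A/B.4.2 differed at 9 named exon sites in a direct test (edgeR, FDR under 0.01), as log2 differences of the first minus the second. Accessibility was lower with shARID1A/B.2.3 at LINC00518 (-0.64), ZNF771 (-0.52), CACNA1G (-0.47), SOX11 (-0.47), ARID1B (-0.73), TMPRSS11A (-1.09), KLHL31 (-0.57) and FAM170B-AS1 (-0.62), and higher at TWIST1 (0.70).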

How the results depend on the processing

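Counts of exon sites moved with the scaling, more for opened than for closed sites, and the cause was not tested. With scaling on promoter sites, 1196 were closed and 70 opened after combined, 682 and 33 after ARID1A and 401 and 46 after ARID1B silencing, and 611 were lower and 19 higher after combined than single silencing. Total-count scaling gave 119 higher in the last comparison, and abundance-trended offsets gave 131 there. All tested sites moved as well, from 3458 higher in the main fit to 5780 and 5695. DESeq2 called 74 opened with ARID1B, 123 opened with ARID1A, 124 with shARID1B.2 and 395 with shARID1B.3 (both directions). Over all sites it called 3466 opened with ARID1B and 4958 with ARID1A. There it closed 4325 and opened 3264 with shARID1B.2, and 12692 and 7228 with shARID1B.3. An FDR of 0.05 gave 616 opened combined, 423 opened with ARID1A, 344 closed and 269 opened with ARID1B, and 183 higher after combined than single silencing, and per shRNA 657, 987, 397, 1098, 1448 and 1352 (shARID1A.2, shARID1A.4, shARID1B.2, shARID1B.3, shARID1A/B.2.3, shARID1A/B.4.2). A size limit of 2-fold gave 278 closed and 29 opened combined, 83 and 14 with ARID1A, 53 and 13 with ARID1B, 33 lower and 0 higher after combined than single silencing, and per shRNA 109, 150, 59, 175, 421 and 274. Shares over all sites are not given for an FDR of 0.05, nor for the size limit except after combined silencing. Those counts are therefore not results about exon sites as such. Exon sites over 3000 bases from a GENCODE start numbered 177 opened combined, 105 opened with ARID1A and 32 higher after combined than single silencing. The share of reads in exon sites was 2.88% in Control and 3.11% in the combinations as a share of reads outside promoters, and 2.16% and 2.21% for sites with a GENCODE exon at the centre. The combinations differed in both measures. Outside promoters, Control libraries gave 2.74% to 2.95%, shARID1A/B.2.3 2.88% to 3.11% and shARID1A/B.4.2 3.19% to 3.22%. With a GENCODE exon they gave 2.06% to 2.21%, 2.07% to 2.22% and 2.25% to 2.27%. Only shARID1A/B.4.2 thus lay above all Control libraries, and shARID1A/B.2.3 overlapped them. Leaving out 1 library at a time, with the tested sites and trended dispersion of the full model kept, gave 536 to 725 closed and 161 to 438 opened combined, 244 to 352 and 40 to 234 with ARID1A, 145 to 214 and 35 to 133 with ARID1B, and 343 to 464 lower and 36 to 83 higher after combined than single silencing. All tested sites gave 30308 to 36391 closed and 7321 to 13890 opened combined in these fits. With ARID1A they gave 14475 to 17980 and 1904 to 7499, and with ARID1B 9243 to 11765 and 2137 to 5758. After combined than single silencing they gave 20279 to 24571 lower and 2036 to 4073 higher. Per shRNA the ranges were 259 to 358, 287 to 450, 115 to 168, 400 to 582, 782 to 883 and 682 to 769, in the order above. The count fell by more than 1.5-fold without replicate 3 of shARID1A.2 (259), replicate 1 of shARID1A.4 (287), replicates 1 and 3 of shARID1B.2 (135 and 115) and replicates 1 and 2 of shARID1B.3 (400 and 408). All tested sites fell as well there, from 16217 closed and 2976 opened to 12938 and 1533 with shARID1A.2. With shARID1A.4 they went from 14891 and 8128 to 10988 and 3409. With shARID1B.2 they went from 6563 and 4775 to 4354 and 3554, and to 4189 and 3033. With shARID1B.3 they went from 17435 and 11135 to 14185 and 6716, and to 13592 and 6392. At named sites 593 of 629 alternative values kept direction and call, 26 lost the call, 1 gained it (HOXD3 with promoter scaling, -0.72) and 9 reversed. The reversed log2 changes were, with trended offsets, -0.28 (ATP8A1), -0.17 (EPM2A), -0.12 (LARP1B) and -0.15 (PANX1), with GC offsets -0.10 (ATP8A1), -0.056 (EPM2A) and -0.098 (LARP1B), and with promoter scaling -0.13 (ATP8A1) and -0.065 (EPM2A).

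Libraries share replicate numbers across groups. Over 63 same-numbered pairs the median r of the deviations was 0.024, but r ranged from -0.40 to 0.59. It was above 0.1 in 21 pairs, so some same-numbered libraries did deviate together. Whether they shared a batch was not tested. A fit with the replicate block gave 736 closed and 385 opened combined, 364 and 232 with ARID1A, 244 and 141 with ARID1B, 472 lower and 84 higher after combined than single silencing, and per shRNA 441, 611, 226, 698, 1009 and 966, and changed no call at the named sites. Over all tested sites the block gave 37437 closed and 13764 opened combined, beside 36610 and 12247 without it. There it gave 20169 and 7439 with ARID1A (19189 and 5972 without it) and 13461 and 6281 with ARID1B (12618 and 4973). After combined than single silencing 25459 were lower and 4347 higher (24441 and 3458). Per shRNA, in the same order, 17223, 15745, 7208, 18386, 37875 and 27224 closed and 3876, 10064, 5459, 13159, 11571 and 15546 opened.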
